A study of Homo sapiens with 16 samples.

Results

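Transforming growth factor beta (TGFB1) signalling and the pigment lineage factor MITF meet at a set of 1154 genomic sites in the melanoma line A375, an established human cell line. These sites were chosen from peak lists of chromatin immunoprecipitation followed by sequencing (ChIP-seq). A site was a SMAD2/3 peak of TGFB1-treated cells on chromosomes 1 to 22 or X that overlapped no SMAD2/3 peak of vehicle-treated cells and shared at least 1 bp with a MITF peak of TGFB1-treated cells. Of 11302 SMAD2/3 peaks with TGFB1, 10714 (94.8%) were absent from the vehicle list, and the 1154 sites with MITF were 10.8% of those 10714. The remaining 9560 TGFB1-only SMAD2/3 sites, without MITF, served for comparison. The SMAD2/3 lists of both treatments and the MITF list of TGFB1-treated cells chose the sites, so their values are given as description only. The H3K27ac, JUNB and ATF3 lists and the MITF list of vehicle-treated cells took no part in the choice. The vehicle MITF list shares its antibody with a list that did. A higher share of vehicle MITF than at sites without MITF thus follows in part from the choice.

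SMAD2 and SMAD3 are phosphorylated by the activated TGF-beta receptor, move to the nucleus with SMAD4 and bind DNA weakly, so that their sites are set largely by other factors already on chromatin. MITF is a basic helix-loop-helix leucine zipper factor that binds E-boxes and controls pigment, survival and lysosomal genes in melanocytes and melanoma. JUNB and ATF3 belong to the AP-1 superfamily of leucine zipper factors, which bind short palindromic elements and respond to growth factors and stress, and H3K27ac is the histone acetylation found at active promoters and enhancers.

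A375 cells were serum-starved for 2 h and then received either recombinant TGFB1 at 10 ng/mL or its carrier (HCl with BSA) for another 2 h. Each combination of 5 antibodies (SMAD2/3, MITF, H3K27ac, JUNB, ATF3) and 2 treatments had 1 library. Differences therefore have no replicate check, and no p-value was computed. Intervals are 95% intervals over peaks (Wilson for shares, Newcombe for differences) and cover counting error only. The titles carry 3 dates: SMAD2/3 and H3K27ac share the first, MITF has its own, and JUNB and ATF3 share the last, so antibody and date cannot be told apart between these groups.

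Peak values are those the authors deposited: fold enrichment over local background, and −log10 p and q at the summit, used only within their own list. From these values the implied sequencing depths, in M reads for vehicle and TGFB1 in turn, were 9.37 and 10.2 (SMAD2/3), 7.39 and 7.4 (MITF), 21.5 and 23.2 (H3K27ac), 34.1 and 47.7 (JUNB) and 6.37 and 28.1 (ATF3). The shortest SMAD2/3 peak was 311 bp in vehicle and 183 bp with TGFB1, so the 2 lists were not called with the same read extension, and its part in what counts as TGFB1-only was not tested. The ATF3 pair differed most in depth, and its part in the ATF3 calls of one treatment alone was not tested. As a check of the label, H3K27ac of vehicle-treated cells lay within 1 kb of a start of 12 of 20 pigment cell genes with an annotated start, among them MITF, PAX3, EDNRB and KIT. It was not called there at TYR, TYRP1, DCT, MLANA, SLC24A5, OCA2, TRPM1 or GPR143. The pigment genes MC1R, GPNMB and RAB27A did carry it. Among 7 markers of other cell types, CD68 and RBFOX3 carried the mark and PTPRC, NEUROD1, KRT5, DSG3 and ALB did not.

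Repeated genes held 59 of the 1154 sites (5.11%), a feature noticed after the data had been seen. In the 45S ribosomal RNA genes on chromosome 21 (chr21:8195988-8456572, GRCh38), 32 of 35 TGFB1-only SMAD2/3 sites overlapped MITF. The SMAD2/3 fold enrichment there was only 1.63 to 3.68, all 32 lacked H3K27ac in both treatments, and all 32 had MITF in vehicle and ATF3 in both treatments. The vehicle SMAD2/3 list also holds 16 peaks inside this array, beside the sites counted here. The 5S ribosomal RNA genes on chromosome 1 added 13 sites with a median spacing of 2.24 kb, and the DANT1 repeat on X added 14 with a spacing of 3.01 kb. Copies of a tandem array share their sequence, so the placement of reads among copies is uncertain. The other 1095 sites lay outside these arrays, and values without the arrays are given for some results only. The classes by JUNB and ATF3, the comparison with other MITF peaks and the comparisons of distance to a start were not recomputed without them.

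Promoter sequence was searched for motifs where the sites overlapped a promoter window. A script matched the sites to RefSeq promoter windows (GRCh38.p14, 250 bases before to 50 after a transcription start): 271 of the 1154 sites overlapped 365 windows of 325 genes. A motif counted anywhere in such a window, so a match can lie outside the site itself. The motif TCACGTG, an E-box with the flanking T that MITF prefers, was searched on both strands. The following stretches surround this motif at 6 promoters of protein-coding genes with strong MITF peaks. The motif had to lie before the start and within 50 bp of the MITF summit, a nearness that is therefore part of the choice. REV1 and UQCC6 also met this choice and are not printed. Their E-boxes lay 8 and 44 bp from the MITF summit, and 432 and 91 bp from the SMAD2/3 summit. At ASPSCR1, with a MITF fold of 43.8, the E-box lay after the start. The printed stretches are written 5′ to 3′ along the gene's strand, with the E-box and its flanking T or A in capitals.

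LAMP1 (chr13:113297062-113297102, plus strand): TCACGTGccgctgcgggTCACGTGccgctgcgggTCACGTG
PLBD2 (chr12:113358545-113358585, plus strand): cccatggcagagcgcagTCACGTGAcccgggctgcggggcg
STX6 (chr1:181022993-181023033, minus strand): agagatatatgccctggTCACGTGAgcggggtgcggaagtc
AP5Z1 (chr7:4775569-4775609, plus strand): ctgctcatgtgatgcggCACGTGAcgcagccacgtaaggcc
TBC1D13 (chr9:128787157-128787197, plus strand): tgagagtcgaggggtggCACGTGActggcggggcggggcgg
AFF4 (chr5:132963666-132963706, minus strand): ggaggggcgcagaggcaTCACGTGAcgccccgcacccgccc

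LAMP1 encodes a major membrane protein of the lysosome, PLBD2 a lysosomal phospholipase-like protein, STX6 a SNARE of the trans-Golgi network and endosomes, AP5Z1 a subunit of an adaptor complex of late endosomes, TBC1D13 a Rab GTPase-activating protein and AFF4 a scaffold of the super elongation complex. The LAMP1 stretch holds the motif in a row of repeats. The E-box lay 4 bp from the MITF summit and 104 bp from the SMAD2/3 summit at PLBD2, 5 and 24 bp at STX6, 2 and 40 bp at AP5Z1, 2 and 113 bp at TBC1D13, and 9 and 38 bp at AFF4. The order was the reverse at LAMP1, where the 3 printed E-boxes lay 17 to 51 bp from the MITF summit and 0 to 34 bp from the SMAD2/3 summit. At all of these promoters MITF was also called in vehicle, and the SMAD2/3 peaks were of modest size, with a fold enrichment of 3.51 (AP5Z1) to 6.62 (TBC1D13).

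A second element, TGACTCA, is the classical AP-1 site. The next 2 stretches come from promoters with strong SMAD2/3 peaks and an AP-1 element within 50 bp of the SMAD2/3 summit, with that element in capitals. Their nearness to that summit is part of the choice.

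TAGLN2 (chr1:159924621-159924661, minus strand): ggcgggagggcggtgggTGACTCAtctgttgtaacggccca
CD63 (chr12:55729115-55729155, minus strand): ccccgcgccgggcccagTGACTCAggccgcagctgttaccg

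TAGLN2 encodes an actin-binding protein and CD63 a tetraspanin of late endosomes, melanosomes and exosomes. At TAGLN2 the AP-1 element lay 42 bp from the SMAD2/3 summit and 323 bp from the MITF summit, with a SMAD2/3 fold enrichment of 30.1 and no MITF peak in vehicle. At CD63 it lay 39 bp from the SMAD2/3 summit and 68 bp from the MITF summit, with a SMAD2/3 fold of 9.19 and MITF in both treatments. Some promoters carried both elements, and 2 such stretches are shown next with both in capitals.

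CPEB1 (chr15:82647609-82647858, minus strand): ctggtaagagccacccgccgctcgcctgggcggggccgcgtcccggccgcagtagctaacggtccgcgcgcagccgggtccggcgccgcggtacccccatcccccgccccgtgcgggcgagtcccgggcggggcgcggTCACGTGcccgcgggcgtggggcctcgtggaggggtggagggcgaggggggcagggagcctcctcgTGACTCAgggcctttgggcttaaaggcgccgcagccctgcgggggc
FAM83G (chr17:19004765-19005014, minus strand): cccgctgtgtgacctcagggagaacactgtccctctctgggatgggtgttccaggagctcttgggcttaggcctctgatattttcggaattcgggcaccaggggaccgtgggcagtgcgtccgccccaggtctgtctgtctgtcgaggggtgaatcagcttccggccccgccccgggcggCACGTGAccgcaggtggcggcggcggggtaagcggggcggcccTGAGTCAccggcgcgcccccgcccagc

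CPEB1 encodes an RNA-binding protein that acts on cytoplasmic polyadenylation, and FAM83G a scaffold for casein kinase 1 isoforms. At CPEB1 the AP-1 element lay 2 bp from the MITF summit and 49 bp from the SMAD2/3 summit, while the E-box lay 68 and 17 bp away. At FAM83G the distances to the MITF and SMAD2/3 summits were 139 and 30 bp for the AP-1 element and 96 and 13 bp for the E-box. At CPEB1 the MITF summit was thus nearer to the AP-1 element than to the E-box.

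TCACGTG occurred in 66 of the 365 windows (18.1%, 14.5 to 22.4%). Windows of neighbouring starts can overlap, and 1 of the 365 lies in a tandem array and holds no TCACGTG. It occurred in 3.78% of 1693 windows over TGFB1-only SMAD2/3 sites without MITF, a difference of 14.3 percentage points (10.6 to 18.7), and in 3.72% of all 34961 windows. The windows over MITF peaks away from these sites held it in 23.5% of 1467 cases. The shorter core CACGTG, which TCACGTG contains, was found in 26.8% of the windows at the sites and in 7.27% of all windows. TGACTCA was found in 9.04% (6.51 to 12.4%) of the windows at the sites and in 7.80% at SMAD2/3 sites without MITF, with an interval of the difference from −1.64 to 4.83 points. Windows over MITF peaks elsewhere held TGACTCA in 3.48% of cases, and all windows in 4.92%. The E-box share at the sites lay between those of SMAD2/3 promoters without MITF and of other MITF promoters, and nearer to the latter.

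Further motifs of SMAD and ATF factors were searched. GGCGCC, a GC-rich element that SMAD proteins bind, was in 43.6% of windows at the sites, in 41.4% at SMAD2/3 sites without MITF and in 19.3% of all windows. Other acetylated windows held it in 29.9% of cases. The palindrome GTCTAGAC and the near-palindrome GTCTGGAC were found in 0 and 4 of the 365 windows, and in 0.197% and 0.758% of all windows. TGACGTCA, the cyclic AMP response element that ATF factors bind, was in 3.84% of windows at the sites, 3.31% at SMAD2/3 sites without MITF (difference 0.528 points, −1.29 to 3.14), 2.95% of other acetylated windows and 1.85% of all windows. TCATGTG and its core CATGTG, the other E-box form of the pigment lineage, were in 3.29% and 7.95% at the sites against 2.90% and 11.1% of all windows. At SMAD2/3 sites without MITF they were in 1.00% and 5.49%, with differences of 2.28 points (0.764 to 4.68) and 2.45 points (−0.188 to 5.83).

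The E-box was divided between the sites that had MITF without TGFB1 and those that did not. Windows at sites with MITF in both treatments held TCACGTG in 53 of 200 cases (26.5%), and windows at sites with MITF called with TGFB1 alone in 13 of 165 (7.88%). The difference was 18.6 points (11.0 to 25.9). TGACTCA did not follow this division, at 9.0% and 9.09% (difference −0.0909 points, −6.35 to 5.83). MITF peaks of the first class were also stronger, with a median fold enrichment of 7.84 against 5.64, and the part of peak strength in this difference was not tested. The 66 separate E-box matches lay a median of 38 bp from the MITF summit and 102 bp from the SMAD2/3 summit, and 40 of them were within 50 bp of the MITF summit against 16 for SMAD2/3. The 31 AP-1 matches lay a median of 136 bp from the MITF summit and 72 bp from the SMAD2/3 summit. A match is a description of letters, and windows cover promoters only, so sites far from genes were not searched.

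**Figure D1:**
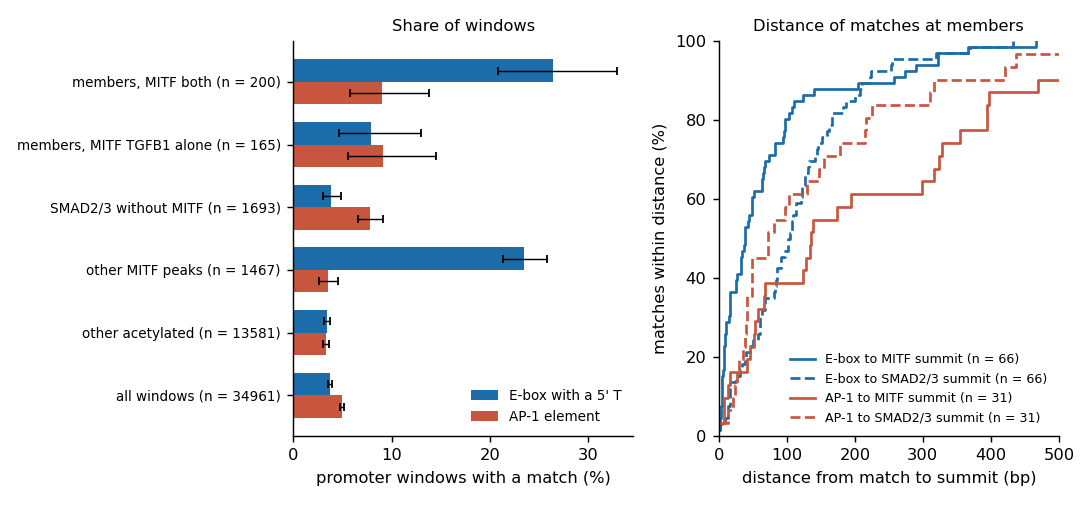
Left, share of promoter windows with a match to the E-box with its flanking T (blue) or the AP-1 element (red), with 95% Wilson intervals, for 6 sets of windows. Right, cumulative share of the matches in windows at the sites by distance in bp to the MITF (solid) and SMAD2/3 (dashed) summit. The E-box share is 26.5% where MITF was in both treatments and 7.88% where it was called with TGFB1 alone. The solid blue line rises first.

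The sites spanned a wide range of SMAD2/3 enrichment. The SMAD2/3 fold enrichment had a median of 5.68 (quartiles 4.39 and 8.71, highest 51.2), against 5.79 (4.56 and 7.59) at sites without MITF, and the median −log10 p was 12.4 against 10.2. The sites were wider, with a median of 338 bp against 273 bp, and a wider peak has more room to overlap a peak of any other list. The MITF fold enrichment had a median of 6.34 (5.07 and 8.78) and reached 81.1. Near the edge of the rule, 40 sites shared under 50 bp with their MITF peak and had a median SMAD2/3 fold of 4.76, and 31 sites missed a MITF peak by under 50 bp and had 4.91. The 3 sites of highest MITF fold (81.1, 75.7 and 59.7) had SMAD2/3 folds of 4.92, 4.27 and 3.92, while the site of highest SMAD2/3 fold had MITF at 16.0.

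**Figure D2:**
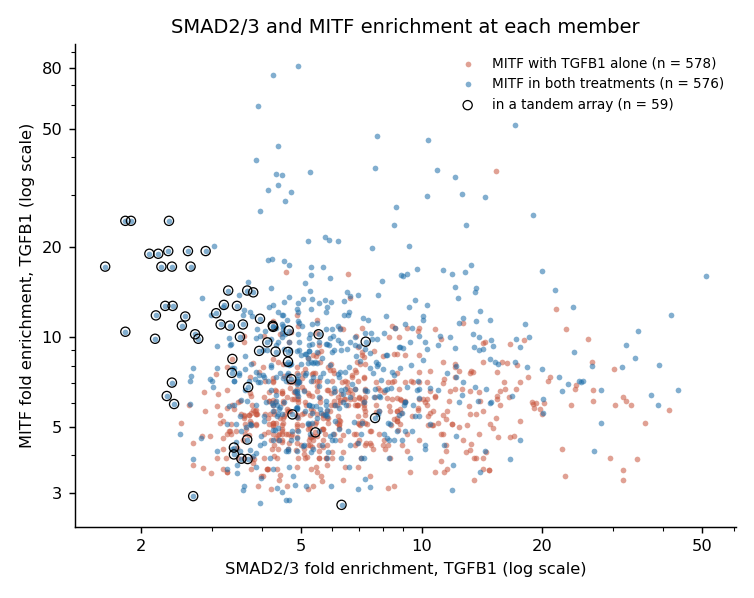
SMAD2/3 against MITF fold enrichment with TGFB1, both on log axes, for each of the 1154 sites. Colour gives MITF in both treatments (576, blue) or with TGFB1 alone (578, red), and rings mark the 59 sites in tandem arrays, most of which lie at low SMAD2/3 fold.

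Both AP-1 factors were called at most sites. JUNB of TGFB1-treated cells overlapped 955 of the 1154 sites (82.8%, 80.5 to 84.8%), where 62.7% of all TGFB1-only SMAD2/3 sites were called, and 60.3% of the sites without MITF. The difference between sites with and without MITF was 22.5 points (20 to 24.7). ATF3 of TGFB1-treated cells overlapped 754 sites (65.3%), against 45.5% of all TGFB1-only sites and 43.1% of those without MITF, a difference of 22.2 points (19.3 to 25.1). With the top 5000 peaks of each partner list alone, the differences were 14.4 points for JUNB and 6.73 points for ATF3. The same order held in cells that had received no TGFB1: JUNB of vehicle overlapped 66.6% of the sites (background 48.0%) against 45.7% without MITF, and ATF3 of vehicle 29.0% (background 16.0%) against 14.4%. When the sites without MITF were weighted to the same distribution of SMAD2/3 −log10 p, their shares became 64.6% for JUNB and 47.7% for ATF3 with TGFB1. By treatment, JUNB was called with TGFB1 alone at 206 sites (17.9%) and ATF3 at 443 (38.4%), against 16.3% and 30.8% of the sites without MITF. These were 206 of the 955 sites with JUNB and 443 of the 754 with ATF3 under TGFB1. Counted over peaks instead, 58.2% of all JUNB peaks and 77.7% of all ATF3 peaks with TGFB1 had no vehicle peak. Without the tandem arrays the ATF3 difference in vehicle was 10.8 points in place of 14.6.

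Acetylation followed the same direction, with smaller differences when whole lists were used. H3K27ac was called at 970 sites in vehicle (84.1%, background 71.9%) and at 993 with TGFB1 (86.0%, background 78.4%). The shares at sites without MITF were 70.4% and 77.5%, and the differences were 13.7 points (11.3 to 15.9) and 8.55 points (6.27 to 10.6). This order of sizes depended on the lists. With the top 5000 peaks of each list the H3K27ac differences were 14.4 points in vehicle and 15.2 with TGFB1. Those of JUNB were then 13.3 and 14.4, and those of ATF3 8.17 and 6.73. Without the tandem arrays the vehicle difference was 15.9 points for H3K27ac and 10.8 for ATF3. Acetylated sites had strong acetylation for their list, with a median percentile of −log10 p of 91.0 among H3K27ac peaks with TGFB1, against 84.3 without MITF. H3K27ac, JUNB and ATF3 with TGFB1 were all present at 592 sites (51.3%) and at 31.5% of the sites without MITF. Only 4 sites (0.347%) had none of these and no vehicle H3K27ac, against 8.73% without MITF.

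**Figure D3:**
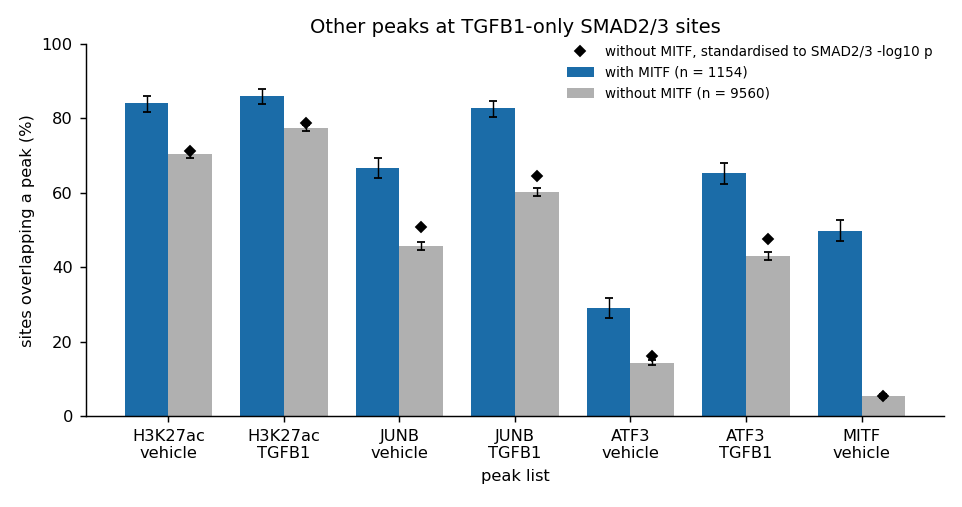
Share of TGFB1-only SMAD2/3 sites, with MITF (blue, 1154) or without (grey, 9560), that overlap a peak of each of 7 lists, with 95% Wilson intervals, and diamonds for the grey group weighted to the SMAD2/3 −log10 p of the blue. Blue is higher in all 7 lists, also against the diamonds. For MITF of vehicle, 49.9% against 5.46%, this follows in part from the choice of the sites by MITF with TGFB1.

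The AP-1 share was examined apart at gene starts and away from them. At the 293 sites within 1 kb of a start of a protein-coding gene, JUNB with TGFB1 was called at 66.9% against 46.7% without MITF, and ATF3 at 38.9% against 26.6%. At the 813 sites farther away, JUNB was at 88.3% against 63.4% and ATF3 at 74.8% against 47.1%. H3K27ac with TGFB1 was near its ceiling at starts (99.3% and 98.0%), and the difference there had an interval that included 0 (−0.531 to 2.26 points). Farther away it was 81.5% against 73.1%.

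By class, 722 sites had JUNB and ATF3 with TGFB1 (62.6%), 233 had JUNB alone (20.2%), 32 had ATF3 alone (2.77%) and 167 had neither (14.5%). At sites without MITF these classes held 39.6%, 20.7%, 3.48% and 36.2%. The 722 sites with both had the highest median SMAD2/3 fold, 6.57, and 14.9% of them were within 1 kb of a start. The same class without MITF had 6.56 and 10.1%. The 167 sites with neither had a median SMAD2/3 fold of 4.6, 97.0% were acetylated and 53.8% were within 1 kb of a start. Without MITF that class had 5.2, 74.1% and 24.7%. MITF in vehicle was at 46.7 to 53.1% in the 4 classes. The SMAD2/3 summit lay a median of 72 bp from the MITF summit and 45 bp from the JUNB summit. Where a site had both, JUNB was the nearer at 561 of 955 sites and MITF at 384. The JUNB distance was also 45 bp at sites without MITF.

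The sites differed from both parent sets in position. Within 1 kb of a start lay 26.5% (24.0 to 29.2%) of the sites, 18.5% of SMAD2/3 sites without MITF and 37.1% of MITF peaks elsewhere. The median distance to a start was 25.1 kb at the sites, 37.9 kb without MITF and 12.3 kb for the other MITF peaks. The difference from sites without MITF was 8.01 points (5.37 to 10.8), and weighting these to the same SMAD2/3 −log10 p gave them a share of 16.2%. By gene ends, which include both ends of each protein-coding gene, 28.1% of the sites, 18.9% of sites without MITF and 39.4% of other MITF peaks were within 1 kb.

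Position changed steeply with the strength of SMAD2/3. Over 5 equal groups of sites, from the weakest to the strongest SMAD2/3 −log10 p, the share within 1 kb of a start went from 48.2% through 32.9%, 31.3% and 12.7% to 7.17%. The JUNB share went from 70.6% to 93.9% and the ATF3 share from 47.2% to 84.8%, while MITF in vehicle stayed between 46.3% and 53.7%. Divided by MITF −log10 p instead, the share at starts went from 32.0% to 20.2%, H3K27ac from 93.9% to 71.4% and MITF in vehicle from 26.4% to 92.2%. The group of strongest MITF held 47 of the 59 array sites, and without these its H3K27ac share was 82.6% in place of 71.4%. The shares at starts were not computed without the array sites, so the part of the arrays in their fall was not tested.

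**Figure D4:**
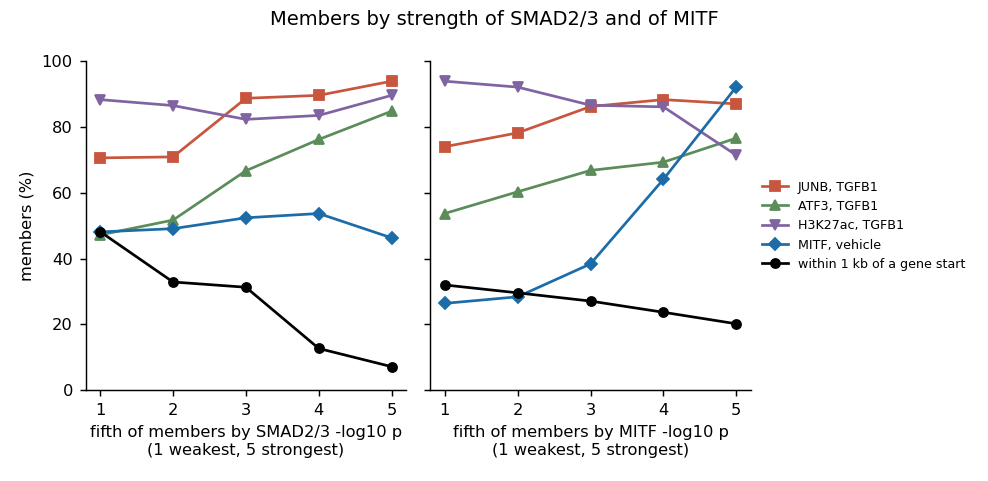
Share of sites (percent) with JUNB, ATF3 or H3K27ac of TGFB1-treated cells, with MITF of vehicle, or within 1 kb of a gene start, in 5 equal groups by SMAD2/3 (left) and MITF (right) −log10 p. On the left the black line falls from 48.2% to 7.17% as the AP-1 lines rise, and on the right MITF in vehicle rises from 26.4% to 92.2%.

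MITF was already called without TGFB1 at 576 of the 1154 sites (49.9%, 47.0 to 52.8%), and at the other 578 it was called with TGFB1 alone. Over all TGFB1-only SMAD2/3 sites 10.2% overlapped a MITF peak of vehicle. Over the whole MITF list 46.1% of 4968 TGFB1 peaks had no vehicle peak, so the 50.1% at the sites is near the background. Counted by MITF peak, 49.8% of the 1143 at the sites and 55.1% of the 3825 elsewhere had a vehicle peak, a difference of −5.30 points (−8.60 to −2.01). With the MITF list in 5 equal groups by −log10 p, the shares were 28.0% and 26.1% in the weakest, 40.0% and 49.4% in the middle and 91.4% and 94.5% in the strongest. The share called in both treatments was thus higher among strong MITF peaks than among weak ones, at the sites and elsewhere. Without the tandem arrays the share of sites with MITF in vehicle was 47.4%.

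MITF peaks at the sites differed from other MITF peaks in what lay with them. JUNB with TGFB1 overlapped 80.8% of MITF peaks at the sites and 41.0% elsewhere (difference 39.8 points, 36.9 to 42.5), ATF3 62.8% and 28.3%, and H3K27ac 84.3% and 64.1%. In vehicle, where SMAD2/3 was not called at these sites, JUNB overlapped 63.8% and 25.3% of the same MITF peaks. Weighting the other MITF peaks to the MITF strength at the sites left their JUNB share with TGFB1 at 41.1%.

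The 576 sites with MITF in both treatments were set against the 578 with TGFB1 alone. JUNB with TGFB1 was at 83.5% and 82.0% (difference 1.5 points, −2.87 to 5.86) and ATF3 at 65.5% and 65.2% (0.226 points, −5.25 to 5.70). ATF3 of vehicle was at 34.4% and 23.7% (10.7 points, 5.44 to 15.8), and H3K27ac with TGFB1 at 82.8% and 89.3% (−6.46 points, −10.5 to −2.47). The tandem arrays lie almost wholly in the first class: 57 of their 59 sites had MITF in both treatments, 34 lacked H3K27ac and all 59 had ATF3 of vehicle. Without them the classes had ATF3 of vehicle at 27.2% and 23.4% (3.73 points, −1.42 to 8.89) and H3K27ac with TGFB1 at 87.5% and 89.2% (−1.76 points, −5.63 to 2.04). Outside the arrays no mark differed between the classes beyond counting error, for H3K27ac, JUNB and ATF3 in each treatment. The E-box share of promoter windows, given above, did. With the arrays included, 31.2% and 24.9% of the classes lay within 1 kb of a gene end (6.34 points, 1.15 to 11.5). Within 1 kb of a start lay 29.0% and 24.0% (5.05 points, −0.15 to 10.2).

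Most sites were acetylated before TGFB1. H3K27ac was called in both treatments at 948 sites (82.1%), with TGFB1 alone at 45 (3.9%), with vehicle alone at 22 (1.91%) and in neither at 139 (12%). At sites without MITF the shares were 68.5%, 9.02%, 1.91% and 20.6%. The share acetylated with TGFB1 alone was thus lower by 5.12 points at the sites with MITF (difference −5.12, −6.26 to −3.72). This direction turned with the top 5000 peaks of each H3K27ac list (1.30 points), and the difference was −2.17 with the SMAD2/3 summit inside the H3K27ac peak and −3.09 with a reciprocal MITF overlap of 50%. Counted over peaks instead of sites, 21.8% of all H3K27ac peaks with TGFB1 had no vehicle peak. Without the tandem arrays the share of sites acetylated in both treatments was 84.3% in place of 82.1%. Of the 139 sites without the mark, 34 were in tandem arrays. Of the other 105, 99 had JUNB (94.3%) and 83 had ATF3 (79.0%) with TGFB1, and 55 had MITF in vehicle (52.4%). Over all 1095 sites outside the arrays these shares were 82.6%, 63.6% and 47.4%. Within 1 kb of a start lay 2 of 98 (2.04%), beside 26.5% of all sites, arrays included.

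Among the sites with acetylation under TGFB1 alone, the 8 of highest SMAD2/3 −log10 p with a gene within 100 kb were examined. The SMAD2/3 fold enrichment of the 8 ranged from 11.0 to 23.8 and that of H3K27ac from 4.43 to 28.0. MITF was called with TGFB1 alone at 6 of them, beside 50.1% of all sites. In ADAM12 (chr10:126062467-126062752), a membrane metalloprotease gene, SMAD2/3 was 12.4, MITF 4.99 and H3K27ac 28.0 with TGFB1, with JUNB 12.2 and ATF3 10.3 already called in vehicle. The site nearest to TTC32 (chr2:19801406-19801730, 95.1 kb away) had the strongest SMAD2/3 fold of the 8, 23.8, with MITF at 12 in vehicle and 12.6 with TGFB1. The site in CSGALNACT1, a chondroitin sulfate enzyme gene, had the highest MITF fold, 30.1 (22.3 in vehicle). Others of the 8 lay in NPFFR2 and IQCJ and near MOCS3 and TMEM163.

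The 12 strongest SMAD2/3 sites with a gene within 100 kb were all acetylated in both treatments, beside 82.1% of all sites. At the site 1.08 kb from HES1 (chr3:194133880-194135346), a repressor gene known as a Notch target, the SMAD2/3 fold was 51.2 with no vehicle peak. MITF there was 7.41 in vehicle and 16.0 with TGFB1, JUNB 8.69 and 18.6, ATF3 5.73 and 10.9, and H3K27ac 40.2 and 24.7. All partner factors were thus called in both treatments, while the missing SMAD2/3 peak of vehicle is part of how the sites were chosen.

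At BHLHE40 (chr3:4986664-4987265, 1.67 kb from the gene), which encodes a helix-loop-helix repressor linked to the clock, the SMAD2/3 fold was 34.6. MITF was 8.10 in vehicle and 10.5 with TGFB1, JUNB 4.93 and 15.4, and ATF3 14.3 with TGFB1 only. At PMEPA1 (chr20:57748472-57749250, 37.3 kb away), whose product dampens TGF-beta signalling, SMAD2/3 was 31.8 and MITF only 3.31, near the floor of its list at the 0.946 percentile, with TGFB1 alone. H3K27ac there was 3.62 in vehicle and 21.4 with TGFB1. The values of separately called lists are set side by side and are not a measure of change.

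PLXND1, a semaphorin receptor gene, and WNT9A, a WNT ligand gene, had the same form. The site 5.52 kb from PLXND1 (chr3:129611963-129612971) had SMAD2/3 at 29.4 and MITF at 3.91 with TGFB1 alone, and that in WNT9A (chr1:227934715-227935517) had 31.7 and 3.57. The sites near STX16, a Golgi SNARE gene, and ARHGAP27, a GTPase-activating protein gene, had SMAD2/3 at 34.3 and 37.3 and JUNB in both treatments (29.6 and 34.2, 30.8 and 35.2). The site in NFATC2, a transcription factor gene, carried neither JUNB nor ATF3 with TGFB1, although SMAD2/3 was at 24.1. The sites in MYH16 and near AZIN1 and NANOS3 had SMAD2/3 at 39.0, 24.7 and 26.5, each with MITF in both treatments.

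The strongest MITF sites were named only where a gene lay within 100 kb, and the 9 passed over for want of one all lay in the 45S array and lacked H3K27ac. All of the 8 named had MITF and H3K27ac in both treatments, 7 were within 1 kb of a gene end, and their SMAD2/3 fold was 3.92 to 10.4. Over all sites MITF was in both treatments at 49.9%, H3K27ac in both at 82.1%, and 28.1% were within 1 kb of a gene end. In the group of strongest MITF, 92.2% had MITF in vehicle. Nearness to a gene follows in part from the limit of 100 kb for naming. With the array sites included, the group of strongest MITF had the lowest share at starts, as given above. Its share without them was not computed. At VPS51 (chr11:65096085-65096269, 0.044 kb from a start), which encodes a tether for vesicles that return to the trans-Golgi network, MITF was 56.3 in vehicle and 75.7 with TGFB1, and SMAD2/3 was 4.27. At LARS2 (chr3:45388501-45388696), the mitochondrial leucyl-tRNA synthetase gene, MITF was 81.8 and 59.7 and SMAD2/3 3.92. At ASPSCR1 (chr17:81977531-81977763), the gene of a tether for glucose transporter vesicles, MITF was 52.5 and 43.8 and SMAD2/3 4.39. ANGEL1 had the highest MITF folds, 90.9 and 81.1, with SMAD2/3 at 4.92. ZNF512B, PGS1 and ITFG2 were alike in position, and only the site near TRIML1 (chr4:188159632-188160092) lay away from gene ends, with SMAD2/3 at 10.4 and MITF at 45.8.

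Sites that had neither AP-1 factor with TGFB1 and MITF with TGFB1 alone numbered 89. The 6 of these with the strongest SMAD2/3 lay at NFATC2, STARD13, OLFML2A, RAPH1, SOX6 and GRK5, and all 6 were acetylated in both treatments. That was so at 82.1% of all sites, and 97.0% of all sites with neither AP-1 factor had H3K27ac with TGFB1. The site in STARD13 (chr13:33633676-33634015), a GTPase-activating protein gene, had SMAD2/3 at 18.4 and MITF at 7.33, with the summits 7 bp apart. The site at RAPH1 (chr2:203534967-203535699), which encodes the actin regulator lamellipodin, had SMAD2/3 at 11.6 and MITF at 5.64 with summits 373 bp apart. SMAD2/3 at these 6 ranged from 9.83 at GRK5 to 24.1 at NFATC2.

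Genes of 9 lists were counted when a site lay in the gene or within 10 kb. Of 19970 protein-coding genes, 4.75% had such a site and 25% had a TGFB1-only SMAD2/3 site without MITF. The TGF-beta target and feedback list had 9 of 35 genes (25.7%), beside 29 (82.9%) with a site without MITF. The extracellular matrix list had 7 of 26 (26.9% and 50.0%), adhesion and actin 7 of 30 (23.3% and 66.7%) and lysosome and autophagy 8 of 36 (22.2% and 27.8%). Fewer were found for pigment cells (3 of 25), dedifferentiated melanoma (3 of 19), the AP-1 family (1 of 16), markers of other cell types (1 of 16) and housekeeping genes (1 of 18). Sites without MITF were at 64.0%, 52.6%, 62.5%, 37.5% and 33.3% of these lists in turn.

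Sites at the lysosome genes had SMAD2/3 folds of 2.97 to 8.62. MITF was called in both treatments at 7 of the 8 genes (LAMP1, CTSA, CTSL, GAA, ATP6V0C, SQSTM1, FLCN) and with TGFB1 alone at PSAP. Over all sites 49.9% had MITF in both treatments. At SQSTM1 (chr5:179818975-179819816), the autophagy receptor p62, MITF was 35.9 in vehicle and 27.3 with TGFB1 and SMAD2/3 was 8.62. At LAMP1 (chr13:113296983-113297171), whose row of E-boxes is printed above, MITF was 34.3 and 35.2 and SMAD2/3 4.35. ATP6V0C, a subunit gene of the proton pump, had MITF at 8.32 and 8.24 and SMAD2/3 at 5.43, with the summits 2 bp apart. That site lies in AMDHD2, 0.157 kb from ATP6V0C, and the one counted for FLCN lies in PLD6, 6.02 kb away. PSAP, the precursor of the saposins, had a site 9.36 kb away with SMAD2/3 at 6.94, MITF at 7.10 and ATF3 at 17.8 and 46.1.

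The TGF-beta targets had MITF in both treatments at 3 of 9 genes, beside 49.9% of all sites. Beside BHLHE40, COL7A1 (chr3:48563642-48564429), the type VII collagen gene, had SMAD2/3 at 17.1 and MITF at 4.84 and 8.21. SMAD6, an inhibitory SMAD gene, held a site (chr15:66765843-66766287) with SMAD2/3 at 7.01 and MITF at 5.06 with TGFB1 alone.

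Matrix and adhesion genes each had MITF in both treatments at 2 of 7 genes, beside 49.9% of all sites. These counts are small, and a difference between the gene lists was not tested. COL4A2, a basement membrane collagen gene, held 3 sites with SMAD2/3 at 13.5, 14.2 and 3.99, and MITF of 3.31 to 3.92 with TGFB1 alone at each. The weakest of these lies 0.173 kb from COL4A1, which runs from the same region, and was counted for both genes. The site near COL1A1 had SMAD2/3 at 9.44 and MITF at 5.10 and 4.83. LOXL2, a lysyl oxidase that cross-links collagen, had 12.4 and MITF at 7.66 with TGFB1 alone, and the site near COL6A1 had 5.26 and 4.32.

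TAGLN2 (chr1:159924427-159925268) had the strongest SMAD2/3 site of the adhesion list, 30.1, with MITF at 7.79 with TGFB1 alone, JUNB at 30.7 and 33.8 and ATF3 at 5.16 and 28.3. The nuclear lamin gene LMNA held sites with SMAD2/3 at 13.1 and 2.84. The integrin genes ITGA3 and ITGB5 had SMAD2/3 at 11.5 and 11.7 and MITF at 4.15 and 6.07. All of these had MITF with TGFB1 alone.

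**Figure D5:**
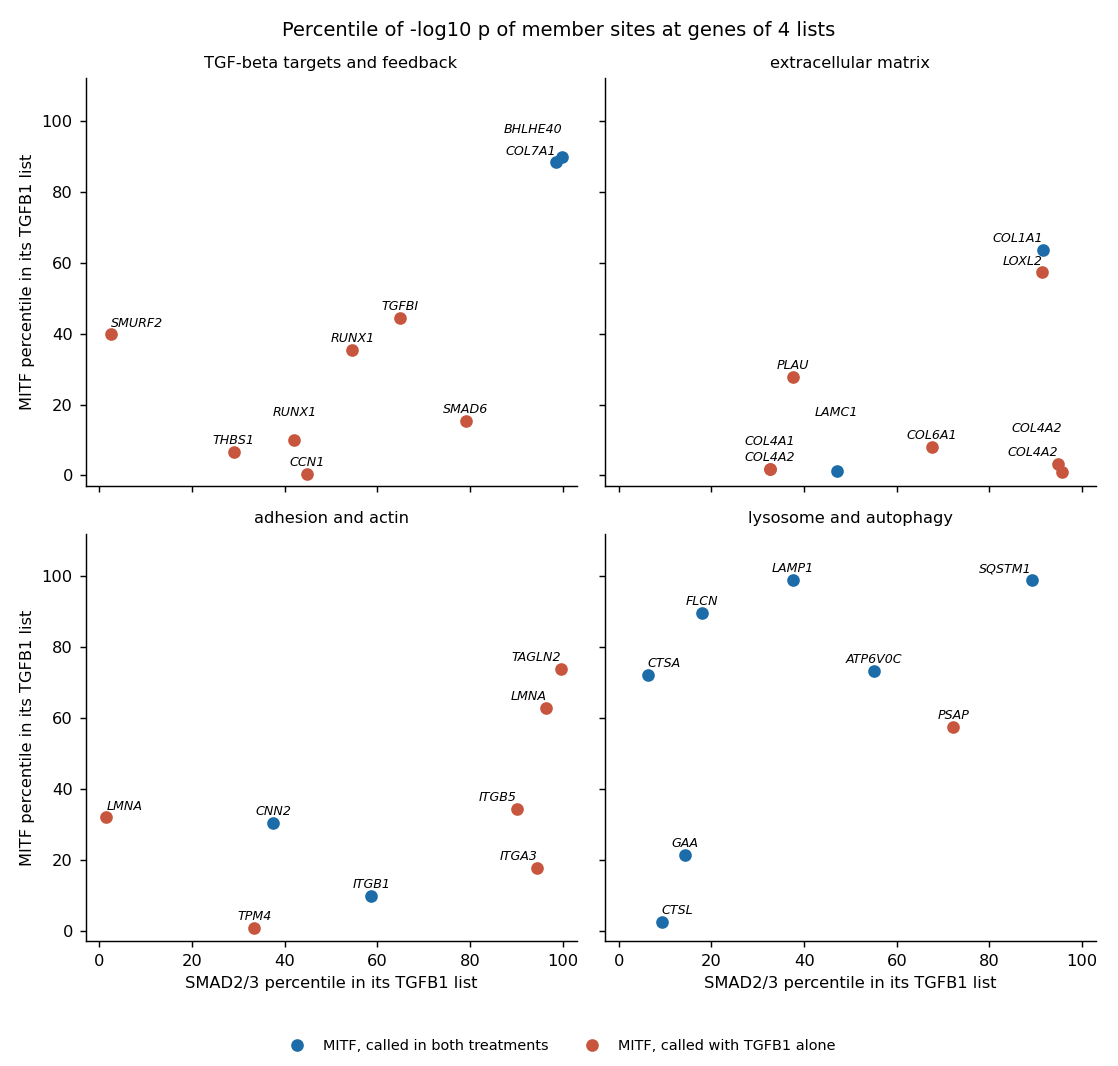
Percentile of −log10 p in the TGFB1 list of SMAD2/3 (horizontal) and MITF (vertical) for sites at the genes of 4 lists that are reported here, blue where MITF was called in both treatments and red where it was called with TGFB1 alone. Of the lysosome genes 7 of 8 are blue, with LAMP1 and SQSTM1 near the top and CTSL (2.57) at the bottom. COL4A2 and CCN1 also lie at the bottom, near the floor of the MITF list, while BHLHE40 (89.8) and COL7A1 (88.3) lie high.

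Among pigment cell genes, MET, the hepatocyte growth factor receptor, held 2 sites. The one at its start (chr7:116671772-116672596) had SMAD2/3 at 16.5, and the one inside the gene (chr7:116716604-116716989) had 7.24 and H3K27ac with TGFB1 alone, at 17.1. MITF was 6.28 at each, with TGFB1 alone. GPNMB, a melanosomal glycoprotein gene, had MITF at 12.7 in vehicle and 11.1 with TGFB1 and SMAD2/3 at 4.95 at its start, and MC1R, the melanocortin receptor gene, had MITF at 4.54 and 4.15 and SMAD2/3 at 4.90. Of genes tied to drug-resistant, dedifferentiated melanoma, AXL had SMAD2/3 at 4.90 and MITF at 4.39, and EGFR held 2 sites with SMAD2/3 at 4.51 and 5.11 and MITF at 8.10 and 4.21. MITF at AXL and EGFR was called with TGFB1 alone, and at YAP1, a Hippo pathway effector gene, in both treatments (6.85 and 5.37). JUNB itself had 2 sites, at its start and 8.4 kb away, with SMAD2/3 at 4.25 and 6.82 and JUNB protein at both in both treatments. The sites counted for GFAP and GAPDH had SMAD2/3 at 4.44 and 7.33, and that for GFAP lay at the start of EFTUD2.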

How the data were processed

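ChIP-seq of A375 cells gave 10 peak lists, and 6 inputs were not analysed here. Reads were aligned with Bowtie to GRCh38 and peaks called with MACS2 (2.0), per the submitters' processing notes; the control and the handling of duplicates are not given in the sources used here. Each peak's fold enrichment, a ratio over local background, was used as the authors deposited it. The −log10 p and −log10 q values are also those the authors deposited. Labels list 1 library per antibody and treatment, although the design text speaks of technical triplicates. Overlaps and shares were computed in Python 3.11.15 (numpy 2.4.6, scipy 1.17.1, pandas 2.3.3) and figures made in matplotlib 3.10.9.

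Identical intervals were counted once, and overlap meant at least 1 bp. The members and lists were chosen with earlier results of these data known. Depth was implied from pileups solved from fold and −log10 p, assuming a genome of 2.7 Gb. Shares of sites without MITF were also weighted to the sites' 5 equal groups of SMAD2/3 −log10 p. Genes and promoter windows came from RefSeq (GRCh38.p14): 19970 protein-coding genes and 34961 windows of 300 bases, none on chromosome 8, whose sites have no start distance. A site took the name of the gene holding its summit or the nearest within 100 kb. Sites were named by rule: the 12 strongest by SMAD2/3, the 8 strongest by MITF, the 8 strongest by SMAD2/3 with acetylation under TGFB1 alone, the 6 strongest by SMAD2/3 with MITF under TGFB1 alone and no JUNB or ATF3, and up to 4 genes per list. Sites with no gene that near were passed over (1, 9, 2 and 0 in turn). A few sites that these rules name stay in the counts and ranges but are not reported here by name or drawn with the lists. CNN2, CCN1 and the other genes beyond 4 in a list appear only in counts, in the percentile plot and where a count is spelled out. The overlaps, weighting and pileups were tested on simulated data. Alternatives are given in the closing section.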

Additional observations from a re-analysis of the deposited data

How the results depend on the processing

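No paired analysis was possible because each antibody and treatment had 1 library. Differences are percentage points, sites with MITF minus sites without. Of 108 differences recomputed under alternatives, 69 stayed within the counting interval of the main value, 38 moved outside it with their direction kept, and 1 reversed. With a reciprocal overlap of 50% there were 647 sites, and the differences became 9.38 for H3K27ac in vehicle, 5.69 for H3K27ac with TGFB1, 25.4 for ATF3 with TGFB1, 8.78 for H3K27ac in both, −3.09 for H3K27ac with TGFB1 alone and 5.03 for gene ends. With a SMAD2/3 fold of at least 6 there were 529 sites, and they became 16.2 for H3K27ac in vehicle, 41.5 for MITF in vehicle, 16.1 for H3K27ac in both and 5.61 for gene ends. With the SMAD2/3 summit inside the MITF peak they were 9.65, 4.92 and 9.33 for H3K27ac in vehicle, with TGFB1 and in both, 24.3 for JUNB in vehicle, 26.2 for ATF3 with TGFB1 and 5.66 for gene ends. With a MITF −log10 q of at least 5 they were 10.5, 4.28 and 9.67 for H3K27ac (in the same order), 24.8 and 25.6 for JUNB and 18.7 and 27 for ATF3 (vehicle, TGFB1), and 54.2 for MITF in vehicle. Without the tandem arrays (added after seeing the data) they were 15.9 and 10.9 for H3K27ac and 10.8 for ATF3 in vehicle. With the top 5000 peaks of each partner list they were 15.2 for H3K27ac with TGFB1, 13.3 and 14.4 for JUNB and 8.17 and 6.73 for ATF3, and H3K27ac with TGFB1 alone reversed to 1.30. With the SMAD2/3 summit inside the partner peak they were 17.8 for JUNB in vehicle, 11.9 for ATF3 in vehicle, 35.4 for MITF in vehicle and −2.17 for H3K27ac with TGFB1 alone. With a partner −log10 q of at least 5 they were 11.6 for ATF3 in vehicle and 38.5 for MITF in vehicle. The share of sites with MITF in vehicle was 53.0% with the SMAD2/3 summit inside the MITF peak, 60.5% with a MITF −log10 q of at least 5 and 45.6% with a SMAD2/3 fold of at least 6. It was 46.8%, 41.0% and 39.0% with the top 5000 vehicle MITF peaks, those with a −log10 q of at least 5 and those holding the SMAD2/3 summit (added after seeing the data). The cause was not tested. Counted in the gene body only, the lists gave 3 lysosome, 3 matrix, 0 other cell type and 0 housekeeping genes, and within 50 kb 4 AP-1, 11 adhesion and 2 housekeeping genes. Promoter windows that overlap no other (added after seeing the data) moved no motif share outside its interval. Motifs in 100 bp windows around summits were not run for want of a genome. The depth of 7.4 M reads limits which weak MITF peaks could be called.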

Other observations

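A further 522 TGFB1-only SMAD2/3 sites without MITF in TGFB1-treated cells overlapped a MITF peak of vehicle. They lay at gene starts more often than sites with no MITF in either treatment, with 41.5% (37.3 to 45.8%) of 506 within 1 kb of a start against 17.1% of 8638. Their JUNB share with TGFB1 was 58.8% (54.5 to 63.0%) against 60.4%, and their ATF3 share 38.5% against 43.4%, where sites with MITF under TGFB1 had 82.8% and 65.3%. H3K27ac of vehicle was at 86.8% of them and at 69.5% of sites with no MITF. Their MITF peaks of vehicle were weak, with a median fold enrichment of 5.46, against 7.73 for those at the 576 sites with MITF in both treatments.

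On chromosome 21, 52 of 176 TGFB1-only SMAD2/3 sites had MITF (29.5%), the highest share of any chromosome, beside 10.8% over all. Outside the 45S ribosomal array it was 20 of 141 (14.2%), next to 14.1% on chromosome 19. The share on X was 14.5% (33 of 228) with the DANT1 repeat included. That repeat holds 14 of these sites with MITF among its 16, and the share on X without it was not computed.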
